A study of Mus musculus with 6 samples.

Results

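A set of 44 genes of the skeletal muscle sarcomere, its calcium stores and its energy supply was followed in inguinal white adipose tissue (iWAT) with and without *Cebpa* in adipocytes. The genes were chosen by symbol as textbook components of muscle fibers and make up 44 of the 36144 gene symbols in the deposited table. The rule holds no value from these libraries, but earlier results of these data were known when the genes were chosen. The list is therefore not blind to the data. They were divided by fiber type into 15 genes typical of fast fibers, 11 typical of slow fibers and 18 that both use, and all 44 were among the 16069 genes with enough counts to test.

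RNA-seq was performed on whole iWAT of 10-week-old female C57BL6/J mice that were randomly fed, with 3 Cebpa_fl/fl; AdipoQ-Cre- controls (Cebpa_fl/fl) and 3 Cebpa_fl/fl; AdipoQ-Cre+ animals (Cebpa_ASKO). Both genotypes carried the floxed *Cebpa* alleles and differed in the Cre transgene, so the controls did not carry Cre. The *Adipoq* promoter that drives Cre becomes active late in adipocyte differentiation. By design, cells in which it is not active keep *Cebpa*, but bulk libraries do not show *Cebpa* by cell type. Lymph nodes were removed at dissection, and all libraries carried the same batch label. The targeted gene *Cebpa* stood at 448 to 498 CPM (estimated counts scaled to library size, after TMM normalization) in Cebpa_fl/fl and at 37.2 to 45.8 CPM in Cebpa_ASKO. Cebpa_fl/fl 1 stood apart from the rest, with lymphocyte genes at 318 CPM in sum beside 7.38 to 15.9 CPM in the other 5 libraries and *Ucp1*, the uncoupling protein of brown fat, at 733 CPM beside 19.4 to 248 CPM.

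Skeletal muscle fibers contract when calcium released from the sarcoplasmic reticulum lets myosin heads pull on actin filaments, and the troponin complex on the thin filament is the calcium switch. Fast and slow fibers build the same machine from different genes for myosin, troponin, calcium pump and calcium buffer. Fast glycolytic fibers of the mouse use the type IIb myosin heavy chain *Myh4*, while slow oxidative fibers use the type I chain *Myh7*. Adipocytes are not known to build sarcomeres, and the inguinal depot lies against skin and the muscles of the body wall and thigh.

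Sequences before a RefSeq start site are shown for 4 members. The adult fast myosin heavy chains lie side by side in the genome, and their RNA levels differed between the libraries in different ways. *Myl3* was the 1 slow-fiber gene that rose. *Myh2* (chr11:67171027-67197517), *Myh1* (chr11:67200052-67224575) and *Myh4* (chr11:67238029-67260446) follow each other on the + strand of GRCm38 in GENCODE M21, and *Myl3* lies on the + strand at chr9:110741861-110769798. Each window below holds the 250 bases before a RefSeq start site (GRCm38.p6), read 5′ to 3′, and capitals mark a MEF2 site, a CArG box or the E-box CAGCTG, sought on both strands.
Myh2 (chr11:67170777-67171026, + strand): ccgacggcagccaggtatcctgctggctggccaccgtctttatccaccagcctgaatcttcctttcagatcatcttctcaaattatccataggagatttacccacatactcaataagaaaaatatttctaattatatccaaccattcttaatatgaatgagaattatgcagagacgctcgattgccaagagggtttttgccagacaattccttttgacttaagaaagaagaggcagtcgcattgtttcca
Myh1 (chr11:67199852-67200101, + strand): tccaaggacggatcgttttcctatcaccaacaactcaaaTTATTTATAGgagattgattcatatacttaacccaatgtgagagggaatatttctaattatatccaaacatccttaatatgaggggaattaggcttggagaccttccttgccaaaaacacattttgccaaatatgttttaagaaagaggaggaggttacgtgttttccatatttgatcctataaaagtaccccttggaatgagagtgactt
Myh4 (chr11:67237562-67237811, + strand): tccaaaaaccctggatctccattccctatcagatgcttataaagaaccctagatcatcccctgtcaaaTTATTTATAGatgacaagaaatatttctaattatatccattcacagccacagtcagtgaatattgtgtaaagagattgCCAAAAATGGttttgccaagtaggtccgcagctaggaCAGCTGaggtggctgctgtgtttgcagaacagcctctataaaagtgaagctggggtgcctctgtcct
Myl3 (chr9:110763428-110763677, + strand): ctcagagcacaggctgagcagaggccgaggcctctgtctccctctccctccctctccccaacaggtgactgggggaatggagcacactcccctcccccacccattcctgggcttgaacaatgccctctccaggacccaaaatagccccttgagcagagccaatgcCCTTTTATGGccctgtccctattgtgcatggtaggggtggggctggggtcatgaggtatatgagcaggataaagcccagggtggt
The windows of *Myh2*, *Myh1* and *Myh4* shared a run of 20 bases, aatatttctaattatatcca, which began 130, 165 and 163 bases before the start site, respectively. *Myh4* held a MEF2 site (TTATTTATAG) at -182, a CArG box (CCAAAAATGG) at -104 and an E-box at -67. The same 10 letters of the MEF2 site stood at -211 in *Myh1*, where neither of the other motifs was found, and the *Myh2* window held none of the 3 motifs. *Myl3* held a CArG box (CCTTTTATGG) at -85. RefSeq promoters were found for 35 of the 44 members, with 43 windows in all. For 26 of the 35, the bases just after a start site occurred somewhere within a GENCODE transcript of the gene. Whether the start sites themselves agree was not tested over the members. Of the printed windows, that of *Myh2* ends directly before the GENCODE start of its gene. The *Myh1* window runs past that start, the *Myh4* window stops short of it and the *Myl3* window lies inside the gene. Motif positions are counted from the RefSeq start sites. The E-box was present in 44.2% of the 43 windows and in 13.0% of 32851 windows over all genes, the MEF2 site in 20.9% against 2.92%, and the CArG box in 11.6% against 1.47%. By fiber type, the E-box was in 50% of 12 fast, 41.2% of 17 slow and 42.9% of 14 shared windows, and the MEF2 site in 25%, 11.8% and 28.6%. These are shares of windows, and windows of the same gene can overlap. The E-box of *Mb*, that of *Tnni1* and the CArG box of *Ldb3* were each counted in more than 1 window. A match of letters is a description of the sequence and does not show that a factor binds there.

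Most genes of fast fibers rose in Cebpa_ASKO iWAT, and most genes of slow fibers did not pass the test. In the quasi-likelihood test of edgeR, at a threshold of 0.05 on p-values adjusted over all genes tested (Benjamini-Hochberg), 22 of 44 members were called higher and 0 lower, whereas 1.39% of all genes tested were called higher and 3.84% lower. The called genes were 12 of the 15 fast, 9 of the 18 shared and 1 of the 11 slow members. The median log2 fold change (Cebpa_ASKO minus Cebpa_fl/fl) was 2.17 for the fast, 1.82 for the shared and -0.22 for the slow members, beside 0.02 over all genes tested. The sign of the slow median turned with the library left out, from -0.90 without Cebpa_ASKO 2 to 0.18 without Cebpa_fl/fl 2. At an unadjusted p below 0.05, edgeR still placed 0 members lower, as did DESeq2 after adjustment. The counts rest on few libraries: without Cebpa_fl/fl 1, Cebpa_fl/fl 3 or Cebpa_ASKO 1 in turn, the call was kept by 2 members, *Myh4* and *Myl3* (beside 0.399%, 0.63% and 0.201% of all genes called higher), while the fast median stayed between 2.03 and 2.29. Without Cebpa_fl/fl 1, the shared and slow medians were 1.63 and -0.43. Without Cebpa_ASKO 2, 13 members were called (0.403% of all genes) and the fast median was 1.65, and without Cebpa_fl/fl 2, 14 were called (1.62%). Without Cebpa_ASKO 3, 24 were called (1.36%). DESeq2 called 28 members (3.98% of all genes), and limma on log2(TPM + 1) with no filter called 2 (0.314%). In a bulk sample, fewer cells of a type and less RNA per cell cannot be told apart, and the same holds for more of either.

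The deposited values allow the members to be read as a share of each library. The members summed to 0.0830%, 0.122% and 0.0980% of all counts in Cebpa_fl/fl 1, 2 and 3, and to 0.379%, 0.780% and 0.278% in Cebpa_ASKO 1, 2 and 3. The groups did not overlap, and the ratio of the means was 4.75 by counts and 4.28 by TPM (a share corrected for transcript length). The fast members' share went from a mean of 0.0613% ± 0.0104 (SD, n = 3) to 0.312% ± 0.171 (SD, n = 3), and the slow members' share was 0.00284% ± 0.00157 and 0.00487% ± 0.00352, with overlap. RNA of these genes was thus a small part of every library and was present in the controls too.

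**Figure D1:**
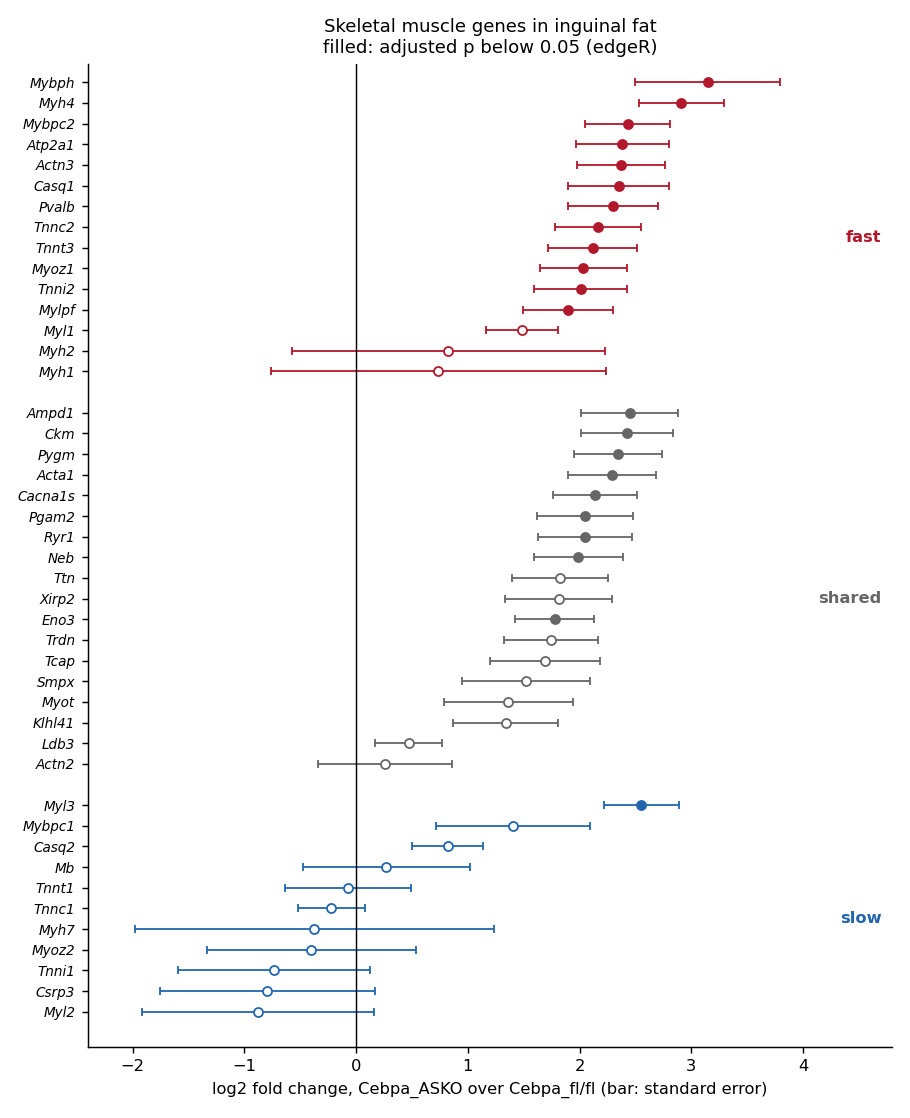
Log2 fold change of each of the 44 members, Cebpa_ASKO over Cebpa_fl/fl (x axis), with bars of 1 standard error, by fiber type and ordered by size within each; filled points passed an adjusted p of 0.05 (edgeR). The fast members other than *Myh1*, *Myh2* and *Myl1* are filled, and 7 of the 11 slow members lie below 0.

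The 4 adult myosin heavy chains, the motor proteins that set a fiber's type, behaved unlike each other. *Myh4* (type IIb) stood at 159, 156 and 121 CPM in Cebpa_fl/fl 1, 2 and 3 and at 1027, 1655 and 596 CPM in Cebpa_ASKO 1, 2 and 3. The groups were far apart, and *Myh4* rose 7.52-fold by group means (log2 fold change 2.91 ± 0.379 SE, edgeR adjusted p = 0.00836), a call kept in all 14 alternatives. The value after ± is the standard error (SE) wherever a log2 fold change is given. *Myh1* (type IIx) stood at 1.94, 24.9 and 74.6 CPM in the controls and at 4.66, 154 and 10.2 CPM in Cebpa_ASKO. Its levels spread over more than an order of magnitude within each genotype, and the difference of 0.74 ± 1.5 (SE) on the log2 scale was within that spread (edgeR adjusted p = 0.854). *Myh2* (type IIa) had 0.780, 6.38 and 17.3 CPM in the controls and 0.634, 37.6 and 5.07 CPM in Cebpa_ASKO (0.83 ± 1.40, adjusted p = 0.818 by edgeR). *Myh7* (type I, also the heavy chain of the ventricle) had 0.223, 2.71 and 4.81 CPM in the controls and 0.0317, 5.85 and 0.0898 CPM in Cebpa_ASKO (-0.37 ± 1.61, adjusted p = 0.937 by edgeR), and the value in Cebpa_ASKO 1 is below the floor of 3 counts, 0.0951 CPM. *Myh1*, *Myh2* and *Myh7* were thus all lower in Cebpa_fl/fl 1, Cebpa_ASKO 1 and Cebpa_ASKO 3 than in the other 3 libraries, which were of both genotypes. Without Cebpa_ASKO 2 the direction of *Myh1* and *Myh2* turned, to -2.19 and -1.5. kallisto divides reads among similar transcripts, and of the runs of 31 bases in their transcripts, 37.9% in *Myh1*, 32.8% in *Myh2* and 30.4% in *Myh4* also occur in other genes, so the smaller chains are less certain beside *Myh4*.

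**Figure D2:**
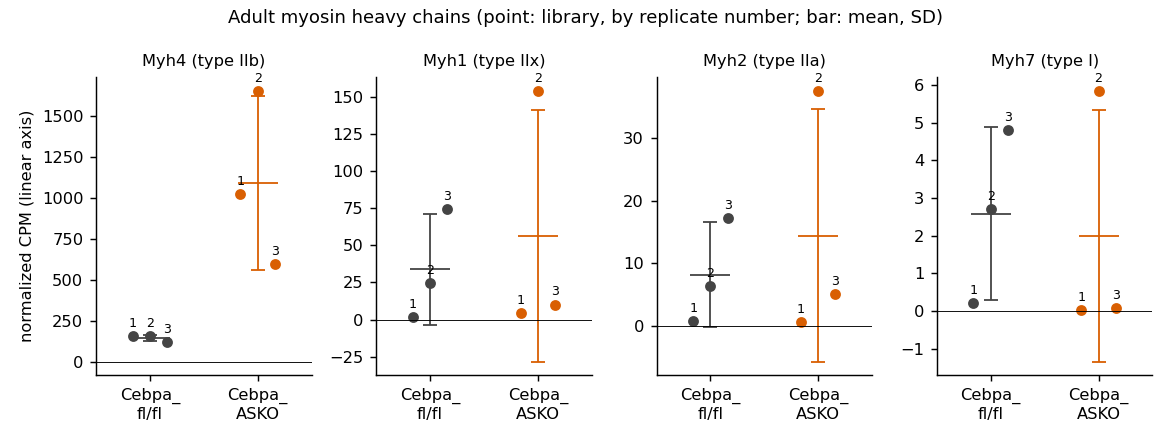
Normalized CPM of the 4 adult myosin heavy chains on linear axes, with 1 point per library numbered by replicate and bars for the mean and SD of 3 libraries. *Myh4* separates the genotypes (121 to 159 against 596 to 1655 CPM), while *Myh1*, *Myh2* and *Myh7* are highest in Cebpa_ASKO 2 and overlap.

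As a share of the TPM of these 4 chains, *Myh4* held 97.3%, 81.9% and 54.4% in Cebpa_fl/fl 1, 2 and 3 and 99.5%, 88.9% and 97.5% in Cebpa_ASKO 1, 2 and 3. It was the leading chain in all 6 libraries, and its shares overlapped between the genotypes. *Myh1* held 1.19%, 13.4% and 33.8% in the controls and 0.451%, 8.34% and 1.66% in Cebpa_ASKO, and the shares of *Myh1* and *Myh2* overlapped as well. *Myh7* held 1.05%, 1.40% and 4.10% in the controls and 0.00505%, 0.707% and 0.0240% in Cebpa_ASKO. Its shares did not overlap by TPM, but they did by estimated counts. In Cebpa_fl/fl 1, Cebpa_ASKO 1 and Cebpa_ASKO 3 they rest on 10, 1 and 4 counts.

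Among the light chains and myosin-binding proteins, which steady the myosin head and the thick filament, 4 of 7 members rose. *Mylpf*, the fast regulatory light chain, had 34.4, 57.4 and 31.4 CPM in the controls and 128, 239 and 91.0 CPM in Cebpa_ASKO (1.89 ± 0.403, edgeR adjusted p = 0.0483). Its slow partner *Myl2* had 0.178, 1.95 and 1.31 CPM against 0.158, 1.48 and 0.224 CPM, with overlap, and the most negative change of all members (-0.87 ± 1.04, edgeR adjusted p = 0.723). *Mybpc2*, the fast myosin-binding protein C, had 15, 21.3 and 16 CPM in the controls and 79.8, 149 and 53.2 CPM in Cebpa_ASKO (2.43 ± 0.384, edgeR adjusted p = 0.0175). Fast light and binding proteins thus lay apart between the genotypes while *Myl2* did not. *Mybpc1*, the slow counterpart, had 2.85, 12.2 and 12.6 CPM in the controls and 22.6, 41.7 and 9.07 CPM in Cebpa_ASKO, and the groups overlapped (1.41 ± 0.690, edgeR adjusted p = 0.325). *Mybph*, myosin-binding protein H, had 1.60, 1.5 and 0.424 CPM in the controls and 9.83, 17.0 and 4.53 CPM in Cebpa_ASKO, the widest change of the members (3.15 ± 0.647, edgeR adjusted p = 0.0432). *Myl1*, the fast essential light chain, had a mean of 69.3 ± 2.50 CPM (SD, n = 3) in the controls and 194 ± 94.8 CPM (SD, n = 3) in Cebpa_ASKO. Its groups did not overlap, and its change of 1.49 ± 0.321 missed the threshold (edgeR adjusted p = 0.0509). Of the runs of 31 bases in *Myl1*, 14.5% also occur in the pseudogene *Mylf-ps*.

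*Myl3*, the essential light chain of slow fibers and of the ventricle, was the exception among the slow genes. It had 0.668, 0.509 and 0.848 CPM in Cebpa_fl/fl and 5.13, 4.06 and 2.76 CPM in Cebpa_ASKO, from 24 to 162 counts per library. The groups did not overlap, and *Myl3* rose by 2.55 ± 0.332 on the log2 scale (edgeR adjusted p = 0.00835), which 13 of 14 alternatives kept. Its highest Cebpa_ASKO library was replicate 1, whereas replicate 2 was the highest of the Cebpa_ASKO libraries for the other 43 members. Its counts were assigned to the transcripts Myl3-201 (0.271 and 1.75 CPM in the mean of the controls and of Cebpa_ASKO) and Myl3-202 (0.309 and 1.78 CPM), and Myl3-203 was listed at 0 in the controls and had 0.368 CPM on average in Cebpa_ASKO.

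On the thin filament, 5 of 8 members rose, the 3 fast troponin subunits among them, and the 3 slow subunits did not pass the test. *Tnnt3*, which ties the troponin complex to tropomyosin, had 53.8, 86.1 and 52.7 CPM in the controls and 234, 439 and 161 CPM in Cebpa_ASKO (2.12 ± 0.400, edgeR adjusted p = 0.0333). *Tnni2*, the inhibitory subunit, had 26.3, 44.5 and 24.6 CPM against 107, 204 and 74.3 CPM (2.01 ± 0.416, edgeR adjusted p = 0.0437). *Tnnc2*, the calcium-binding subunit, had 25.4, 40.8 and 28.6 CPM against 116, 225 and 85.6 CPM (2.17 ± 0.384, edgeR adjusted p = 0.0277). In each of these 3 genes the lowest Cebpa_ASKO library was above the highest control. The slow subunits were at most 2.32 CPM everywhere. *Tnnt1* had 0.624, 1.89 and 1.76 CPM in the controls and 0.856, 2.32 and 0.875 CPM in Cebpa_ASKO (-0.07 ± 0.565, edgeR adjusted p = 0.965). *Tnni1* had 0.267, 0.742 and 0.657 CPM against 0.0634, 0.791 and 0.135 CPM (-0.73 ± 0.858, edgeR adjusted p = 0.719), and *Tnnc1* had 1.09, 1.67 and 1.59 CPM against 0.919, 1.51 and 1.30 CPM (-0.22 ± 0.300, edgeR adjusted p = 0.767). All 3 slow subunits overlapped between the genotypes.

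*Acta1*, the actin of adult skeletal muscle thin filaments, had 86.4, 120 and 106 CPM in the controls and 398, 832 and 297 CPM in Cebpa_ASKO (2.29 ± 0.393, edgeR adjusted p = 0.0245). *Neb*, nebulin, the giant protein that runs along the thin filament, rose from a mean of 20.3 ± 5.75 CPM (SD, n = 3) to 80.6 ± 40.5 CPM (SD, n = 3), a log2 fold change of 1.99 (edgeR adjusted p = 0.0401). Both genes separated the genotypes without overlap.

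At the Z-disc and along titin, where sarcomeres are anchored, 2 of 12 members rose, both of them fast genes. *Actn3*, the α-actinin of fast fibers, had 35.6, 41.1 and 24.5 CPM in the controls and 140, 278 and 106 CPM in Cebpa_ASKO (2.37 ± 0.392, edgeR adjusted p = 0.0212). *Actn2*, the α-actinin that all fibers use, had 1.16, 2.97 and 3.92 CPM against 2.25, 5.77 and 1.62 CPM, with overlap and the smallest change of the shared members (0.26 ± 0.602, edgeR adjusted p = 0.873). *Myoz1*, a calcineurin-binding Z-disc protein of fast fibers, had 5.92, 9.64 and 6.72 CPM against 25.1, 48.4 and 17.9 CPM (2.04 ± 0.393, edgeR adjusted p = 0.0353). Both fast members at the Z-disc thus rose, as did most but not all fast members of the filaments. *Myoz2*, its slow relative, had 0.134, 0.911 and 0.381 CPM against 0.0951, 0.817 and 0.157 CPM (-0.40 ± 0.935, edgeR adjusted p = 0.873). *Ttn*, titin, the spring that spans the sarcomere from Z-disc to M-line, had 25.2, 54.1 and 49.1 CPM in the controls and 128, 239 and 88.5 CPM in Cebpa_ASKO. Its groups did not overlap, and its change of 1.83 ± 0.433 did not pass the threshold (edgeR adjusted p = 0.0674). The same held for *Tcap*, which caps titin at the Z-disc (1.69, adjusted p = 0.117), for the actin-binding *Xirp2* (1.81, adjusted p = 0.0915) and for *Klhl41*, an adaptor of a ubiquitin ligase at the sarcomere (1.34, adjusted p = 0.180), all by edgeR. *Myot* (myotilin, an actin crosslinker) and *Smpx* (a small protein of the muscle cell's anchoring sites) had positive changes of 1.36 and 1.52 with overlap (edgeR adjusted p = 0.259 and 0.205). *Csrp3*, the muscle LIM protein of slow fibers and heart, averaged 1.13 CPM in the controls and 0.641 CPM in Cebpa_ASKO (-0.79 ± 0.961, edgeR adjusted p = 0.730).

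*Ldb3*, a PDZ and LIM domain protein of the Z-disc, had 25.8, 22.6 and 26.1 CPM in the controls and 27.2, 52.9 and 23.3 CPM in Cebpa_ASKO, and its gene total did not pass the test (0.47 ± 0.301, edgeR adjusted p = 0.457). The total joined transcripts that moved apart. Ldb3-207, of 1499 bases, had 1.90, 5.09 and 4.58 CPM in Cebpa_fl/fl 1, 2 and 3 and 15.4, 30.9 and 11.4 CPM in Cebpa_ASKO 1, 2 and 3. Ldb3-205, of 4981 bases, had 17.3, 15 and 17.0 CPM in the controls and 10.4, 14.4 and 9.84 CPM in Cebpa_ASKO, and Ldb3-201, of 5119 bases, averaged 3.99 CPM and 1.23 CPM. The short form was thus higher in Cebpa_ASKO with no overlap between the genotypes, with a ratio of the means of 4.99, and Ldb3-205 was lower in every Cebpa_ASKO library. By TPM, which is per length, the gene averaged 8.85 in the controls and 23.1 in Cebpa_ASKO. These are single-transcript estimates by kallisto, no test was run on them, and *Ldb3* was singled out after its values were seen.

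**Figure D3:**
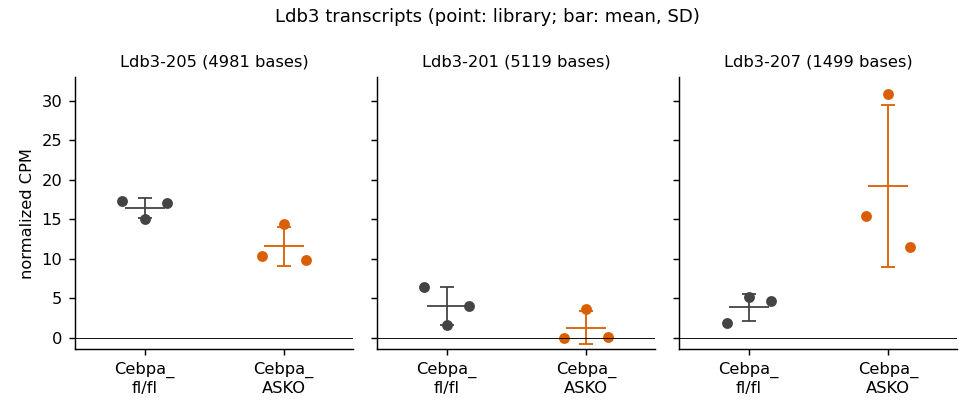
Normalized CPM of 3 *Ldb3* transcripts, with 1 point per library in the order of replicate number and bars for the mean and SD of 3 libraries. Ldb3-207 is above 11 CPM in each Cebpa_ASKO library and at most 5.09 CPM in the controls, while Ldb3-205 runs the other way.

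Over all members, 153 transcripts had at least 10 estimated counts in a library. Of these, 63 were higher in Cebpa_ASKO without overlap and 2 were lower, Ldb3-205 and Ttn-203. Of the 59122 transcripts of all genes with that many counts, 8.83% were higher without overlap and 7.84% lower. A transcript could pass this minimum through Cebpa_ASKO alone: Cacna1s-201, Mybph-202 and Myl3-203 were at 0 in each control. Transcripts of the same gene were counted singly and are not independent of each other. *Myl1* made both of its classical forms, Myl1-201 (8.99 and 39.8 CPM in the mean of the controls and of Cebpa_ASKO) and Myl1-202 (44.7 and 132 CPM), while Myl1-207 averaged 4.14 and 2.73 CPM with overlap. Most *Ttn* counts were assigned to Ttn-201, of 81843 bases, which had 36.5 CPM and 139 CPM on average.

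Genes of calcium release, storage and uptake separated the genotypes without overlap in 7 of 7 members, and 5 of them were called higher. *Atp2a1* encodes SERCA1, the calcium pump of fast fibers, and had 74.8, 106 and 107 CPM in the controls and 438, 804 and 257 CPM in Cebpa_ASKO (2.38 ± 0.417, edgeR adjusted p = 0.0264). *Pvalb*, parvalbumin, the soluble calcium buffer of fast mouse fibers, had 27.2, 32.9 and 23.7 CPM against 117, 223 and 72.7 CPM (2.30 ± 0.402, edgeR adjusted p = 0.0262). *Casq1*, the main calsequestrin of fast fibers, had 8.78, 15.1 and 13.9 CPM against 54.0, 106 and 32.6 CPM (2.35 ± 0.448, edgeR adjusted p = 0.0344). The fast pump, buffer and store protein thus changed by similar amounts. *Casq2*, the calsequestrin of slow fibers and heart, had 1.05, 0.805 and 0.869 CPM against 1.62, 2.12 and 1.08 CPM, a narrow separation that did not pass the test (0.82 ± 0.319, edgeR adjusted p = 0.219). *Ryr1*, the release channel, had 12.4, 15.7 and 18.1 CPM in the controls and 48.8, 108 and 34.5 CPM in Cebpa_ASKO (2.05 ± 0.423, edgeR adjusted p = 0.0436). *Cacna1s*, the voltage sensor that opens it, rose from 4.37 ± 0.330 CPM (SD, n = 3) to 19.2 ± 10.5 CPM (SD, n = 3), and *Trdn*, triadin, which links the channel to calsequestrin, had a change of 1.75 that missed the threshold (edgeR adjusted p = 0.0703).

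Genes of energy supply rose in 5 of 6 members, and the oxygen store *Mb* did not pass the test. *Ckm*, muscle creatine kinase, had 73.0, 101 and 63.0 CPM in the controls and 345, 686 and 243 CPM in Cebpa_ASKO (2.42 ± 0.409, edgeR adjusted p = 0.0227). *Ampd1*, muscle AMP deaminase, had 4.30, 6.13 and 3.35 CPM against 21.7, 40.0 and 13.5 CPM, the widest change of the shared members (2.45 ± 0.434, edgeR adjusted p = 0.0278). *Pygm*, muscle glycogen phosphorylase, and the glycolytic enzymes *Eno3* and *Pgam2* rose by 2.34, 1.78 and 2.05 on the log2 scale (edgeR adjusted p = 0.0219, 0.0401 and 0.0453). These 5 genes of glycogen, glycolysis, phosphocreatine and purine turnover were each higher in 3 of 3 Cebpa_ASKO libraries than in any control. *Mb*, myoglobin, the oxygen store of slow and oxidative fibers, had 3.34, 12.9 and 11.7 CPM in the controls and 5.42, 23.6 and 4.62 CPM in Cebpa_ASKO (0.27 ± 0.748, edgeR adjusted p = 0.897). Its direction turned to -0.90 without Cebpa_ASKO 2 and to -0.13 without Cebpa_fl/fl 1.

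In all, 29 of the 44 members had their lowest Cebpa_ASKO library above the highest control (13 fast, 14 shared and 2 slow), and 0 were lower, whereas 12.9% of all genes tested were higher without overlap and 13.2% lower. With 3 libraries against 3, an exact permutation test of a single gene cannot go below p = 0.1.

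The balance of fast and slow forms was read within 9 pairs of a fast and a slow gene of related function. The value read was the fast partner's share of the pair's TPM, which is per length. The 3 Cebpa_ASKO shares lay above the 3 control shares in 8 of 9 pairs and below them in 1, the essential light chains *Myl1* and *Myl3*, a pair that was added after its values were seen. The fast pump *Atp2a1* held 37.4%, 48.2% and 43.5% of the pair with *Atp2a2*, the pump of slow fibers and of most other cells, in Cebpa_fl/fl 1, 2 and 3 and 75.3%, 84.4% and 63.7% in Cebpa_ASKO 1, 2 and 3. Since *Atp2a2* is also the pump of most other cells, the share in this pair does not read the fiber balance alone. *Mybpc2* held 76.2%, 56.6% and 52.3% of the pair with *Mybpc1* in the controls and 78.9%, 76.9% and 83.1% in Cebpa_ASKO. *Myl1* held 98.8%, 99.4% and 98.7% of the pair with *Myl3* in the controls and 96.2%, 98.4% and 97.6% in Cebpa_ASKO, the opposite direction. In the remaining 6 pairs the fast gene already held over 92% in every control. Some slow partners had few counts in Cebpa_ASKO 1 and 3: 2 and 6 for *Tnni1*, 3 and 7 for *Myoz2*, and 5 and 10 for *Myl2*. The shares in those pairs rest on these few counts, and *Tnni1* in Cebpa_ASKO 1 is below the floor of 3 counts. *Tnnc2* held 95.6% ± 0.730 (SD, n = 3) of its pair in the controls and 99.0% ± 0.437 (SD, n = 3) in Cebpa_ASKO, and *Tnni2* held 98.8% ± 0.329 and 99.9% ± 0.0885. *Tnnt3* went from a mean of 97.5% to 99.3%, *Mylpf* from 96.7% to 99.5%, *Casq1* from 93.9% to 97.8% and *Myoz1* from 95.1% to 99.0%. By estimated counts instead of TPM, the pairs *Mylpf* with *Myl2* and *Mybpc2* with *Mybpc1* overlapped between the genotypes and the other 7 kept their direction without overlap. The pairs share the same 6 libraries and are not independent of each other, and no test was run on them.

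**Figure D4:**
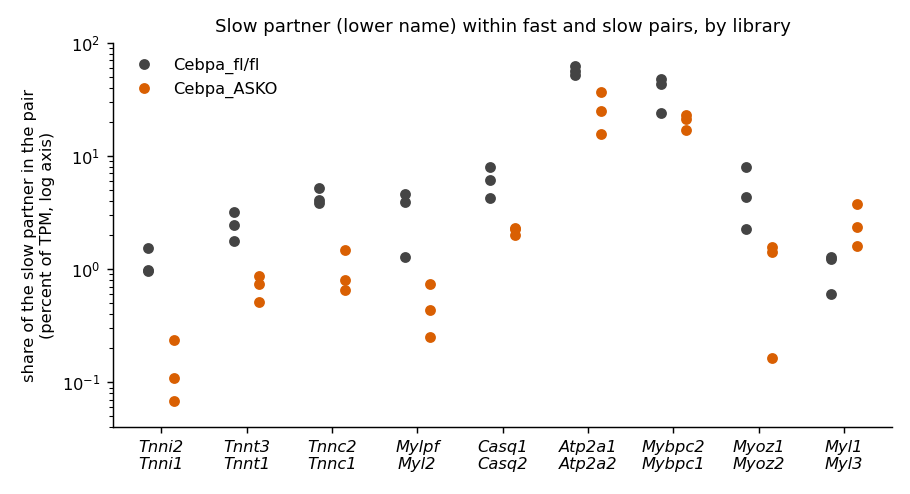
Share of the slow partner (lower name) in the summed TPM of each fast and slow pair, on a log axis, with 1 point per library and color for the genotype. In 8 of 9 pairs the 3 Cebpa_ASKO libraries lie below the 3 Cebpa_fl/fl libraries. In the pair *Myl1* with *Myl3*, at the right, the Cebpa_ASKO libraries lie above the controls. *Tnni1*, *Myoz2* and *Myl2* had at most 10 counts in Cebpa_ASKO 1 and 3.

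The members also varied together among libraries of the same genotype. Cebpa_ASKO 2 was the highest of its group for 43 of 44 members, with *Myl3* as the exception, and the order Cebpa_ASKO 2, then 1, then 3 held for 34 of 44, including 18 of 18 shared members. Its level was a median of 2.81 times that of Cebpa_ASKO 3 and 1.96 times that of Cebpa_ASKO 1. Cebpa_fl/fl 1 was the lowest control for 31 of 44 members. The slow members spread most within a genotype, with Cebpa_ASKO 2 between 1.16 and 65.1 times Cebpa_ASKO 3, against 2.27 to 3.57 times for the shared members.

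**Figure D5:**
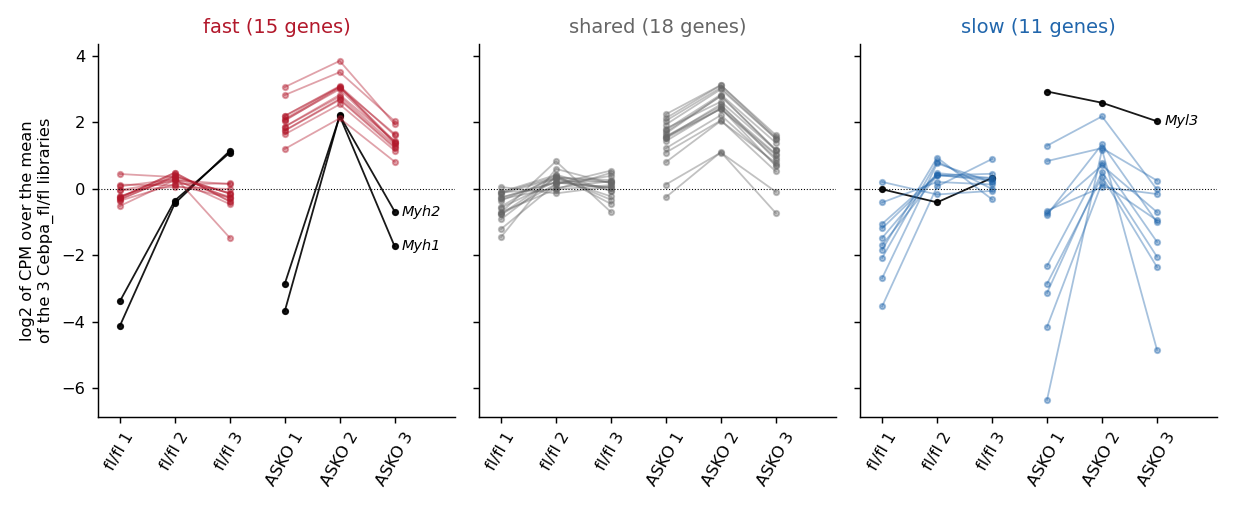
Log2 of each member's CPM over its mean in the 3 Cebpa_fl/fl libraries, by library, in panels for fast, shared and slow genes, with lines joining the libraries of a genotype. Fast and shared genes peak in Cebpa_ASKO 2, the slow genes scatter to both sides of 0, and *Myl3*, *Myh1* and *Myh2*, drawn in black, leave their classes.

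Other genes of skeletal muscle structure, from a list apart from the 44, had 10 of 33 tested called higher and 0 lower, with a median log2 fold change of 1.43 (22 higher by DESeq2). They included *Cacng1* (2.27), a subunit of the voltage sensor, the triad proteins *Sypl2* (2.18), *Jsrp1* (1.84) and *Jph2* (1.82), and the Z-disc protein *Myoz3* (2.02). The tropomyosins *Tpm1* and *Tpm2*, which many cell types express, rose by 1.41 and 1.38. Several genes that mark muscle formation were at or near 0: *Myod1* was at most 0.562 CPM, *Myog* at most 0.148 CPM, *Pax7* at most 0.0766 CPM, and the embryonic and neonatal heavy chains *Myh3* and *Myh8* were at most 0.0673 and 0.233 CPM. Others on these lists were detected: the myogenic factor *Myf6* had 0.445 to 0.805 CPM in the controls and 0.507 to 2.27 CPM in Cebpa_ASKO, and the embryonic light chain *Myl4* had 3.09 to 3.92 CPM and 2.09 to 3.52 CPM, both with overlap. Of 11 tested regulators and satellite cell genes, 0 were called by edgeR (3 higher and 1 lower at an unadjusted p below 0.05, and 1 in each direction by DESeq2), with a median of 0.34. Of the genes of embryonic and cardiac muscle, 1 was called, *Actc1*, the actin of heart and of developing muscle that stood on both lists. *Actc1* had 0.2, 0.106 and 0.275 CPM in the controls and 2.54, 3.52 and 2.02 CPM in Cebpa_ASKO and rose by 3.77 ± 0.422 on the log2 scale (edgeR adjusted p = 0.00469). The cardiac heavy chain *Myh6* had no counts in any library.

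Markers of other cell types moved beside the muscle genes. Of 10 adipocyte genes, 8 were called lower and 0 higher (also 0 higher at an unadjusted p below 0.05 in edgeR and by DESeq2), with a median log2 fold change of -1.29, and their summed level was 32623 to 39859 CPM in Cebpa_fl/fl and 9019 to 11020 CPM in Cebpa_ASKO. Of 12 smooth muscle and pericyte genes, 1 was called higher by edgeR (*Synm*) and 3 by DESeq2. Of the 12, 6 were higher without overlap, as were 12.9% of all genes tested. The median was 0.36, with summed levels of 801 to 994 CPM and 1031 to 1205 CPM. Mammary epithelial genes summed to 934 to 2039 CPM in the controls and 2704 to 2790 CPM in Cebpa_ASKO and had a median of 0.78, with 0 of 11 called by edgeR, 8 higher at an unadjusted p below 0.05 and 5 higher by DESeq2. Schwann cell genes summed to 290 to 394 CPM and 371 to 451 CPM, with a median of 0.32 and 1 of 8 called higher (*Ncmap*). Keratinocyte genes (27.2 to 61.7 CPM and 31 to 44.6 CPM, median -0.09) and neuromuscular junction genes (13.9 to 16.5 CPM and 17.2 to 21.8 CPM, median 0.43) each had 0 of 4 called by edgeR and by DESeq2, and 1 at an unadjusted p below 0.05. Brown and beige adipocyte genes had 1 of 11 called, *Lhx8*, which fell (2 higher and 3 lower at an unadjusted p below 0.05, and 2 lower by DESeq2), with a median of -0.25 and sums of 171 to 1356 CPM and 791 to 1490 CPM. *Cidea*, *Cox7a1* and *Otop1* of that list did not overlap in the other direction, with Cebpa_ASKO at 4.0, 3.74 and 2.78 times the control mean, and were not called (edgeR adjusted p = 0.166, 0.247 and 0.259). Of 8 lymphocyte genes, 0 were called by edgeR, 6 were lower at an unadjusted p below 0.05 and 1 was lower by DESeq2. The share of all genes at an unadjusted p below 0.05 was not taken. Counts at that threshold, here and for the regulators, thus have no background beside them. The part of these cell types, and of any muscle taken along with the depot, in the differences of the 44 genes was not tested.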

How the data were processed

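Poly-A RNA of whole iWAT was sequenced as TruSeq libraries. For each library the authors deposited kallisto estimated counts and TPM per transcript, and TPM summed per gene symbol. The submitters' processing notes name kallisto 0.44.0 and the builds GRCm38.p6 and GRCh38.p12, without saying what each was used for. The extraction protocol in the labels has both inguinal depots extracted together, while the study's methods describe a weighed portion.

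Transcripts were matched to GENCODE M21 by identifier (116816 of 118489, 98.6%), and the deposited estimated counts were summed per symbol and rounded. For *Pygm* the matched transcripts hold 50% of the authors' TPM in every library, since an identical transcript went unmatched, so its CPM are low by that factor and its fold change is not affected. Totals ran from 33141769 to 49477671 estimated counts per library, and the floor (3 counts) covers counting error only. The SE of a log2 fold change came from the quasi-likelihood fit, which includes the spread between libraries. The labels give 1 sample per mouse.

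edgeR 4.0.16 (R 4.3.3) with filterByExpr, TMM scaling, a quasi-likelihood fit of genotype and Benjamini-Hochberg adjustment over 16069 genes was the main test; the study named DESeq2. In simulated counts with 200 changed genes among 15861, the test recovered 68% of them, and 4.23% of its calls were false. Alternatives were DESeq2 1.42.0, its size factors, total counts scaling, no filter, limma 3.58.1 on log2(TPM + 1) with and without a filter (TPM of at least 1 in 3 libraries) and on log2(TPM + 0.1), the replicate number as a block, and leaving out each library. "Rose" and "fell" are used for genes below an adjusted p of 0.05.

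The members and all gene lists were chosen with earlier results of these data known, so no list was tested. Every member is named; values of each library are given for the myosin heavy chains, the fast and slow pairs, *Acta1*, *Ckm*, *Mb*, *Pvalb*, *Ryr1*, *Ttn*, *Actn3* and the largest and smallest change of each class. Of the other lists, called genes (up to 5 by size) and defining markers are named; *Ldb3*, *Myl1*, *Ttn* and *Myl3* transcripts, the pair *Myl1* with *Myl3*, *Jph2*, *Myf6*, *Myl4*, *Cidea*, *Cox7a1*, *Otop1* and the tropomyosins were added after their values were seen. Motifs were sought in the 250 bases before RefSeq start sites.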

Additional observations from a re-analysis of the deposited data

How the results depend on the processing

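Of the 14 alternatives, limma on log2(TPM + 1) without a filter left 2 members called higher, with 1 fast and 0 shared, and DESeq2 called 14 shared members (28 members in all). The other tools and scalings kept the counts within 1.5 times. Leaving out 1 library at a time gave from 2 to 24 called members, 1 to 13 of them fast and 0 to 10 shared. The called members' log2 fold changes stayed between 1.24 and 3.49 over all alternatives, and 198 of 308 calls were kept. The slow median turned to 0.12 and 0.13 under limma with pseudocounts of 1 and 0.1, where 7 of the 11 slow members passed the filter, and ran from -0.90 to 0.18 with 1 library left out. *Tnnt1* turned to 0.17 under limma on log2(TPM + 1), with or without the filter, and to 0.21 with the pseudocount of 0.1. *Actn2* turned to -0.0092 under limma on log2(TPM + 1), with or without the filter, and to -0.041 with the pseudocount of 0.1. With 1 library left out, *Myh1* ran from -2.19 to 2.06, *Myh2* from -1.5 to 2.01, *Myh7* from -5.27 to 0.44, *Tnnt1* from -0.73 to 0.18, *Myoz2* from -1.88 to 0.47, *Mb* from -0.90 to 0.63 and *Actn2* from -0.49 to 0.64. The cause of these changes was not tested. Same-numbered libraries did not deviate together (correlations of 0.07, 0.03 and -0.20), and differently numbered ones had correlations from -0.18 to 0.15. With 3 libraries per genotype, this cannot show whether the numbers pair the mice, which the paper describes as littermates. With the replicate number as a block, 15 members were called, 5 shared and 0 slow, and 0.461% of all genes were called higher (370 genes in either direction, in place of 840). Apart from *Mybpc1* and *Mb*, the slow members were under 6 CPM in every library, and a difference smaller than their spread over 3 libraries was not detectable.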

Other observations

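Of 13 tested genes of muscle metabolism outside the 44, 2 rose and 2 fell. *Pfkm*, muscle phosphofructokinase, and *Adssl1*, adenylosuccinate synthase of muscle, rose by 1.00 and 1.07 on the log2 scale in Cebpa_ASKO (edgeR adjusted p = 0.0401 and 0.0290). *Gys1*, the glycogen synthase of muscle and fat, went the other way, from 137 ± 31 CPM (SD, n = 3) to 76.4 ± 3.76 CPM (SD, n = 3), with an adjusted p = 0.0401 by edgeR. *Car3*, a carbonic anhydrase of slow muscle fibers and of adipocytes, stood at 11089 to 14180 CPM in Cebpa_fl/fl and at 2817 to 3380 CPM in Cebpa_ASKO (log2 fold change -2.09, edgeR adjusted p = 0.00552). *Mstn*, which encodes myostatin, an inhibitor of muscle growth made by fibers, was at most 0.487 CPM in the controls and 0.718 to 2.81 CPM in Cebpa_ASKO, a difference of 2.34 on the log2 scale that missed the threshold (edgeR adjusted p = 0.0670).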
